A study of Homo sapiens with 6 samples.

Results

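The 225 genes described here are the zinc finger genes with a ZNF symbol that MDA-MB-231 cells expressed at an appreciable level. MDA-MB-231 is a human breast cancer line of the triple-negative type. The symbols are ZNF, a number and at most 1 further letter, and the members were the rows with a mean of at least 300 normalized read counts over the 6 libraries. They were 225 of 455 ZNF genes and of 15706 genes in the authors' deposited table. The 3 knockout libraries came from cells given sgMLL3 guides, with a genotype labelled as MLL3 knockout, and the 3 control libraries from cells given guides labelled sgNT, with a wild-type genotype. All cells were untreated and cultured in serum-containing DMEM. The exon that was cut, the guide sequences and the clonal origin of the cells are not given in the labels. The p-values therefore measure the spread between these 6 libraries.

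C2H2 zinc fingers are short protein folds that hold a zinc ion between a pair of cysteines and a pair of histidines and read a few bases of DNA each. C2H2 zinc finger genes form the largest group of human transcription factor genes, and many lie in clusters of duplicated genes on chromosome 19. Many encode a KRAB box, a protein stretch that recruits TRIM28 (also called KAP1) and, through it, the H3K9 methyltransferase SETDB1 and HP1 proteins, and many KRAB proteins bind transposable elements. MLL3, with the approved symbol KMT2C, is a histone H3 lysine 4 methyltransferase that acts mainly at enhancers.

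The rule selected on the level over both groups, so 16 members had a control mean under 300 and 2 had a knockout mean under 300. ZNF286A (mean 301) and ZNF184 (306) lay just inside the limit, and ZNF419 (299.7) and ZNF141 (299) just outside. All 225 members were found by gene ID in GENCODE 29 (GRCh38), and all passed the filter of a mean of at least 10. A KRAB box was called by pattern in the coding transcripts, where at least 8 of 14 conserved positions matched. On that basis 114 encoded a KRAB box, 107 encoded a protein without one, and 4 (ZNF271P, ZNF252P, ZNF702P and ZNF767P) had no coding transcript. The number of C2H2 fingers, counted by pattern as the most in any coding transcript of the gene, had a median of 9 and ranged between 0 and 33.

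The printed DNA is that of 1 finger from each of 5 members, because the results below follow the bases that these genes use to write the same protein fold. Among members with at least 5 fingers they are 2 of the 3 that increased most and the 3 that decreased most, which makes them a description only. Each run is the first finger whose pattern, with its linker, spans 84 bases within 1 exon, read on the coding strand of GENCODE 29 (GRCh38), and the capitals mark the codons of the 2 cysteines and 2 histidines. The 2 genes that were higher in the knockout libraries come first, and their fingers lie at chr5:179079084-179079167 (plus strand) and chr10:38117968-38118051 (plus strand). The 3 genes that were lower follow, at chr19:58368433-58368516, chr16:4752757-4752840 and chr7:149432547-149432630, all on the minus strand.
ZNF354C: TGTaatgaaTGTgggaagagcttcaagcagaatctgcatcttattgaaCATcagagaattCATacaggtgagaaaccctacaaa
ZNF37A: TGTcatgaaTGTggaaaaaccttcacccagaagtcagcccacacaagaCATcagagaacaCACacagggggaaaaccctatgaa
ZNF837: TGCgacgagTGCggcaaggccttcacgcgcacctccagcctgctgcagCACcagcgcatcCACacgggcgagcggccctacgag
ZNF500: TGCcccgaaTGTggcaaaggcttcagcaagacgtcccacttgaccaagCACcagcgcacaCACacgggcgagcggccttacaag
ZNF777: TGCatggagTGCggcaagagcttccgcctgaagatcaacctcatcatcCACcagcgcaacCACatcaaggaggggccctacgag
G and C made up 38.1% and 46.4% of the bases of these fingers in ZNF354C and ZNF37A, against 70.2%, 60.7% and 58.3% in ZNF837, ZNF500 and ZNF777. In the upper 2, TGT is the only cysteine codon, whereas TGC is used for all or 1 of the cysteines in the lower 3.

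The libraries held between 41240265 and 49514464 recovered reads, of which the members took 0.503% to 0.55%, and no member had fewer than 167 reads in a library. Of the markers of the line, VIM, CD44 and EGFR were abundant and CDH1 had at most 7.52 normalized counts. ESR1 and PGR were not among the rows. In contrast, ERBB2, taken as low in a triple-negative line, averaged 5000 in the knockout and 5776 in the control libraries. EPCAM, also taken as low in the line, averaged 945 in the knockout and 784 in the control libraries (log2 fold change 0.27, limma adjusted p = 0.0591). Markers of blood, vessel and connective tissue cells summed to 1281 to 1360 in the knockout and 1742 to 2080 in the control libraries over 8 genes. By limma, edgeR and DESeq2, 0 of the 7 of these genes tested were higher, also at an unadjusted p, and by limma 3 (PDGFRB, COL1A1 and CD14) were lower. None of the 8 was at 0, and their part in the results below was not tested. KMT2C itself (chromosome 7, 152134922 to 152436005, minus strand) had 1519, 1660 and 1339 normalized counts in the knockout libraries, against 1367, 1379 and 1255 in the control libraries. The groups overlapped, with knockout 3 inside the control range, and the log2 fold change was 0.17 (SE 0.10, limma adjusted p = 0.205). Loss of a protein after a guide-directed cut need not show in its RNA level, so this level does not check the label.

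ZNF genes moved in both directions in the knockout libraries, more of them upward. Of the 225 members, 75 were higher (33.3%) and 35 lower (15.6%) by limma with a Benjamini-Hochberg adjusted p under 0.05. Among all 14618 genes tested, 18.9% were higher and 14.4% lower. The median log2 fold change, knockout over control on the log2(value + 1) scale, was 0.10 over the members and -0.017 over all genes. Changes were moderate, between -0.60 and 0.97, and 0 members changed by 2-fold or more. In bulk RNA a change in the cells that express a gene and a change in its RNA per cell cannot be told apart. The groups did not overlap in 94 members that were higher and in 49 that were lower, against 23.9% and 22.4% of all genes. In the authors' deposited table, 79 members were higher and 41 lower at an adjusted p under 0.05, against 21.1% and 17.4% of the genes with an adjusted p there.

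The counts changed with the library left out, and those of all genes fell in the same cases. Without knockout 1 or knockout 2, 44 members were higher in either case. Of all genes, 1587 and 1784 were then higher, against 2760 with all 6 libraries. Members called lower numbered 7 without knockout 1, 16 without knockout 2, 22 without control 2 and 18 without control 3. Of all genes, 556, 715, 1355 and 1066 were lower in these cases, against 2099 with every library. Quantile normalization gave 57 higher and 49 lower. Higher calls then made up 53.8% of the calls of members and 51.2% of those of all genes, whereas as deposited they made up 68.2% and 56.8%. The median log2 fold change under quantile normalization was 0.021 over the members and -0.050 over all genes.

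The 10 largest increases among members whose groups did not overlap were in ZNF224, ZNF354C, ZNF37A, ZNF518A, ZNF160, ZNF184, ZNF638, ZNF614, ZNF510 and ZNF605, of which 8 encode a KRAB box. Of these 10, 5 (ZNF224, ZNF354C, ZNF184, ZNF614 and ZNF605) had control means of 227 to 256 and reached the limit of 300 through their knockout level. Exons of 7 of the 10 (all but ZNF160, ZNF614 and ZNF510) overlap another gene, which makes their counts uncertain. ZNF224, a KRAB repressor with 18 fingers known for silencing aldolase A, had 474, 467 and 440.4 normalized counts in the knockout libraries, against 227, 213 and 267 in the control libraries. Every knockout library lay far above every control library. The log2 fold change was 0.97 (SE 0.14, limma adjusted p = 0.000105). The gene lies on chromosome 19 (44094339 to 44109886, plus strand), and an exon overlaps a gene on the other strand. Because the strand setting of the authors' counting is not given, reads of ZNF224 and of that gene cannot be told apart.

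ZNF37A on chromosome 10 (38094334 to 38150293, plus strand) had 929, 876 and 876 counts in the knockout libraries and 487, 485 and 495 in the control libraries. Both groups were tight and well apart, with a log2 fold change of 0.87 (limma, SE 0.11, adjusted p = 4.64e-05). ZNF160 (chromosome 19, 53066606 to 53103436, minus strand) has been described as a repressor of TLR4. It had 669, 684 and 662 counts in the knockout libraries, against 436, 399.5 and 311 in the control libraries. The knockout libraries agreed closely while the control libraries spread, and the log2 fold change was 0.83 (SE 0.13, limma adjusted p = 0.000278).

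ZNF638 has no KRAB box and encodes an RNA-binding protein, NP220, that acts with the HUSH silencing complex on unintegrated retroviral DNA. Its levels were 1735, 1679 and 1672 counts in the knockout libraries and 1103, 964 and 918 in the control libraries. The gap between the groups was several times the spread within them, with a log2 fold change of 0.77 (limma, SE 0.099, adjusted p = 5.49e-05). ZNF518A, also without a KRAB box, had 570.4, 546 and 508 counts in the knockout libraries, against 291, 357 and 259.8 in the control libraries. Its transcript has the lowest GC content of the 225 members, at 34.7%. ZNF605 was the least even of the 10, with 426, 428 and 353 counts in the knockout and 350.1, 256 and 161 in the control libraries. The lowest knockout and the highest control library nearly met, and the call was lost without control 3 or knockout 1 (limma adjusted p up to 0.0712). The other 9 stayed called without any 1 library.

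**Figure D1:**
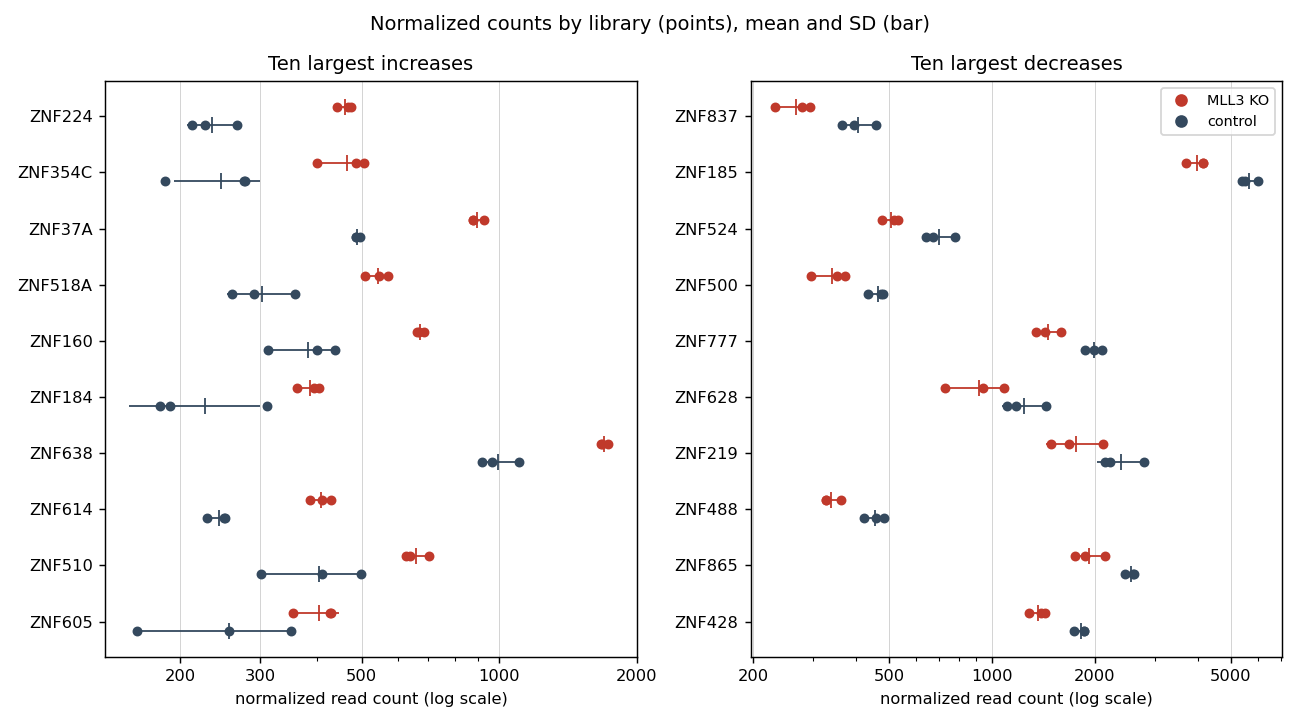
Normalized read counts (log scale) of the 10 members with the largest increases (left) and the 10 with the largest decreases (right). Points are libraries, MLL3 knockout above control in each row, and bars give the mean and SD (n = 3 each). ZNF224 sits at 440.4 to 474 in the knockout and 213 to 267 in the control libraries, and the ZNF185 groups are apart by more than their spread.

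The 10 largest decreases by the same rule were smaller than the increases. They were in ZNF837, ZNF185, ZNF524, ZNF500, ZNF777, ZNF628, ZNF219, ZNF488, ZNF865 and ZNF428. Among them only ZNF777 was called as encoding a KRAB box by the pattern used here. ZNF500 matched 7 of the 14 positions, just under the limit of 8, so the pattern does not settle whether it has one. ZNF837 (chromosome 19, 58367618 to 58381060, minus strand) had 232, 277 and 294 counts in the knockout libraries, against 458, 363 and 395 in the control libraries. All 3 knockout libraries were below the control libraries, and the log2 fold change was -0.60 (SE 0.15, limma adjusted p = 0.0056).

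ZNF185 is on chromosome X (152914442 to 152973480, plus strand) and, despite its symbol, encodes a LIM domain protein of the actin cytoskeleton with 0 C2H2 fingers. It had 3695, 4142 and 4152 counts in the knockout libraries and 6021, 5507 and 5397 in the control libraries. The groups stood well apart, and the log2 fold change was -0.50 (SE 0.084, limma adjusted p = 0.000391). ZNF777 (chromosome 7, 149431363 to 149461123, minus strand) had 1348, 1434 and 1597 counts in the knockout libraries, against 1879, 1992 and 2105 in the control libraries. No library overlapped, with a log2 fold change of -0.45 (limma, SE 0.096, adjusted p = 0.00225).

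ZNF865, with 20 fingers and the highest GC content of the members (71.1%), had 1748, 1875 and 2136 counts in the knockout libraries and 2580.0, 2448 and 2610.0 in the control libraries. The knockout libraries were lower throughout, and the log2 fold change was -0.41 (SE 0.094, limma adjusted p = 0.00349). ZNF219, a partner of SOX9 in mouse cartilage, had 1485, 1685 and 2108 counts in the knockout libraries, against 2143, 2218 and 2779 in the control libraries. Here the highest knockout library almost reached the lowest control library, and the call was lost without control 3 or knockout 1 (limma adjusted p up to 0.0912). Of the other decreases, ZNF500 lost its call without control 2 or knockout 1 (up to 0.0983) and ZNF628 without control 3 or knockout 1 (up to 0.136). ZNF488 lost it without knockout 1 or 2 (up to 0.0873) and ZNF524 without knockout 2 (0.0558).

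Of the 75 members that were higher, 43 encode a KRAB box, as do 114 of all 225 members. Among the 114 KRAB members, 43 were higher (37.7%) and 6 lower (5.26%), with a median log2 fold change of 0.24. The 6 lower ones were ZNF496, ZNF746, ZNF316, ZNF282, ZNF213 and ZNF777. Of the 107 coding members without a KRAB box, 30 were higher (28.0%) and 29 lower (27.1%), with a median of -0.12. Among all genes tested, 18.9% were higher and 14.4% lower. The 4 members without a coding transcript had log2 fold changes between 0.14 and 0.42, and 2 of them, ZNF271P and ZNF252P, were higher. These groups were not tested against each other. Leaving out 1 library gave 24 to 55 KRAB members higher and 2 to 12 lower, with 24 higher and 2 lower without knockout 1 or knockout 2, 26 and 2 without control 3, 35 and 3 without control 2, and 55 and 12 without control 1. Over the coding members without the box it gave 19 to 33 higher and 5 to 35 lower, with 19 and 5 without knockout 1, 19 and 14 without knockout 2, 23 and 16 without control 3, and 24 and 19 without control 2. Quantile normalization gave 31 KRAB members higher and 12 lower, with a median of 0.15. With the GC and length trend described below removed, 6 KRAB members were higher and 4 lower (median 0.060), as were 5 and 4 of the others (median -0.027). Of all genes, 4.07% were then higher and 5.93% lower. Base composition went with the box: the median GC content of the longest transcript was 44.3% in KRAB members and 52.0% in coding members without one.

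The library medians show the same division. After centring each gene on its mean log2 value, the median over the KRAB members was 0.14, 0.15 and 0.066 in the knockout libraries, against -0.028, -0.087 and -0.19 in the control libraries. All knockout libraries were above all control libraries, but the distance between control 1 and control 3 was larger than that between knockout 3 and control 1. Over the coding members without a KRAB box the medians were -0.090, -0.023 and 0.022 in the knockout libraries and 0.028, 0.029 and 0.066 in the control libraries. The order was turned round there, and knockout 3 lay next to controls 1 and 2.

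**Figure D2:**
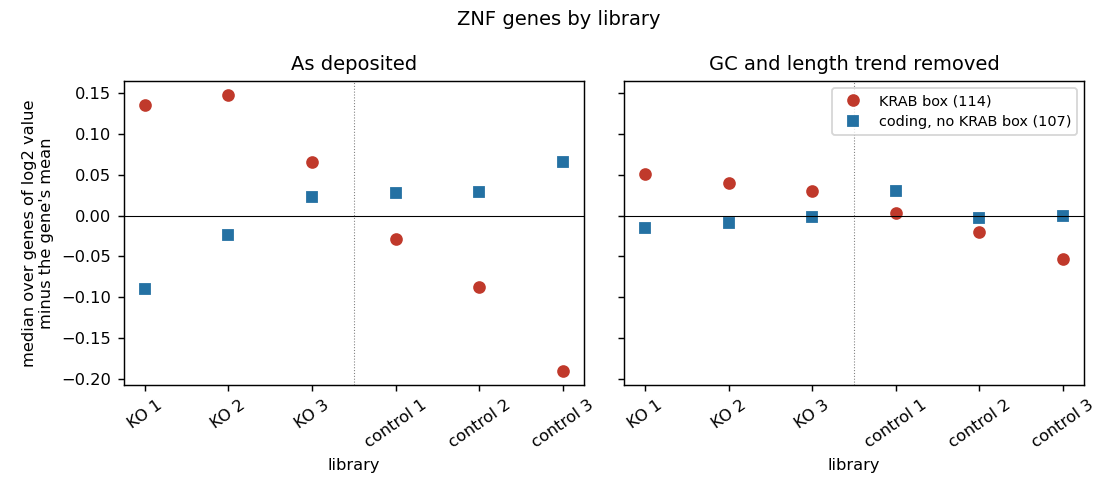
Median over genes of the log2 value minus the gene's own mean, for each library, over 114 members with a KRAB box (circles) and 107 coding members without one (squares). Left, values as deposited: KRAB members lie between 0.066 and 0.15 in the knockout and between -0.19 and -0.028 in the control libraries. Right, after removal of the GC and length trend the KRAB medians run from 0.030 to 0.050 in the knockout and from -0.053 to 0.0033 in the control libraries.

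The direction of change followed the GC content of the transcript. The members were split into 4 bands of nearly equal size by GC content. In the lowest band (34.7% to 41.7%), 44 of 57 were higher and 0 lower, with a median log2 fold change of 0.48. In the second band (41.7% to 46.4%), 28 of 56 were higher and 0 lower. In the third band 3 of 56 were higher and 5 lower. In the highest band (56.3% to 71.1%), 0 were higher and 30 of 56 lower, with a median of -0.31. Where these counts are 0 in the lowest 2 bands and in the highest, they were 0 also at an unadjusted limma p and by edgeR and DESeq2. Spearman's rho of the fold change with GC content was -0.86 over the 225 members and -0.673 over 14598 genes. Both are descriptions across genes, which share the same 6 libraries.

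Members with and without the box had medians of the same sign in the lowest 2 bands and in the highest. In the lowest band, 23 of 32 KRAB members and 19 of 22 coding members without the box were higher, with medians of 0.48 and 0.56. In the second band the counts were 19 of 42 and 9 of 14. In the highest band, 4 of 14 KRAB members and 26 of 42 others were lower, with medians of -0.22 and -0.31. In the third band the KRAB median was close to 0, at -0.0061, against -0.12 in the others. After trend removal the KRAB and other medians were 0.033 and -0.033 in the third band and 0.0025 and -0.11 in the highest. KRAB members made up 32 of the 57 in the lowest band and 14 of the 56 in the highest.

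**Figure D3:**
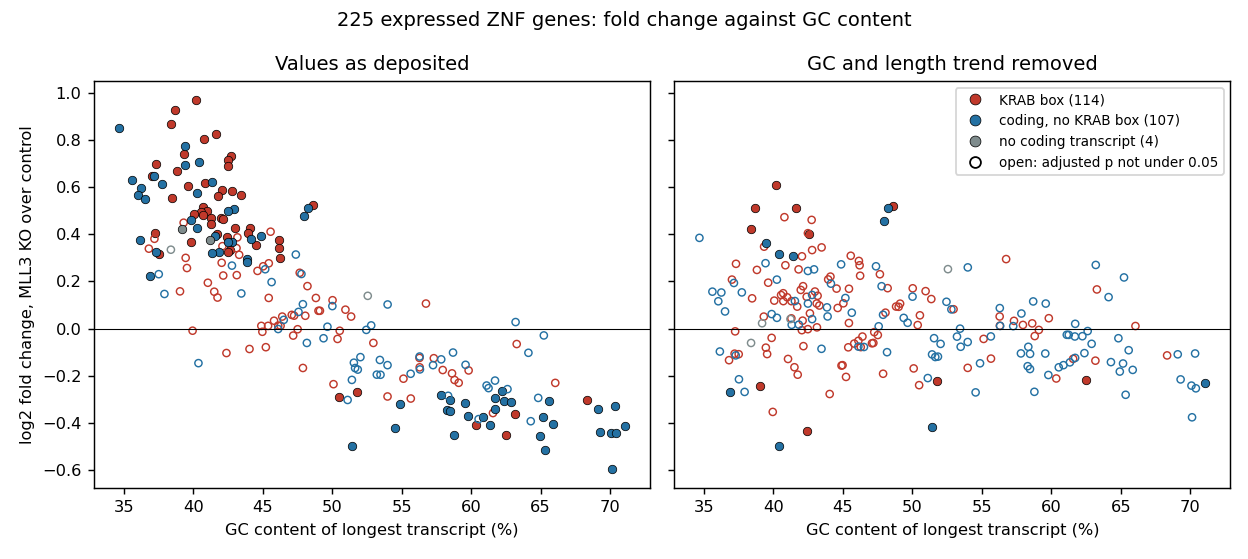
Log2 fold change, knockout over control, against the GC content (%) of the longest transcript for the 225 members, coloured by KRAB box. Filled points had a limma adjusted p under 0.05. As deposited (left) the points run from above 0.5 at low GC content to below -0.3 at high GC content (rho -0.86), and after removal of the GC and length trend (right) 11 are called higher and 8 lower (rho -0.36).

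The same gradient was present in the DNA that encodes the fingers. Over the 216 members with finger DNA, rho between fold change and the GC content of that DNA was -0.812. The third base of a codon is largely free to vary without changing the amino acid. G or C stood at the third base of finger codons in a median of 36.8% in the 72 members that were higher, 88.9% in the 33 that were lower and 61.9% in the 111 not called. The whole coding sequence gave a rho of -0.857 (221 members), and the transcript after the stop codon gave -0.779 (187 members). In the promoter the gradient was weaker: between 250 bases before and 50 after the start (RefSeq, GRCh38.p14, 189 members matched), rho with the fold change was -0.279. A gradient remained in the members after the trend was removed, with a rho of -0.36 for transcript GC content (against -0.028 over all genes), -0.443 for the coding sequence, -0.398 for finger DNA and -0.44 after the stop codon.

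**Figure D4:**
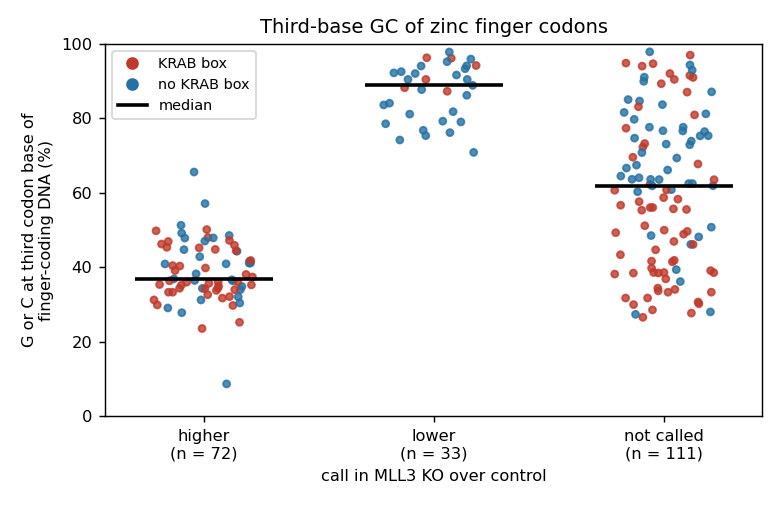
Percentage of finger codons with G or C at the third base, for members that were higher (72), lower (33) or not called (111) in the knockout libraries. Points are genes, coloured by KRAB box, and lines are medians, at 36.8%, 88.9% and 61.9%.

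The calls were also counted by the number of fingers. Of the 37 members with 15 or more fingers, 20 were higher and 6 lower, with a median log2 fold change of 0.34. Of the 65 with 10 to 14 fingers 19 were higher and 6 lower, and of the 73 with 5 to 9 fingers 23 were higher and 12 lower. Of the 41 with 1 to 4 fingers, 10 were higher and 9 lower, with a median of -0.12. Median GC content was 42.6% with 15 or more fingers and 51.6% with 1 to 4. With the trend removed 3 of the 37 (8.11%) and 1 of the 41 (2.44%) were higher, against 4.07% of all genes. Among KRAB members alone, rho between fold change and the number of fingers was 0.475, and it was 0.351 after the GC and length trend was removed (n = 114 genes). Over coding members without a KRAB box it was -0.112 (n = 107 genes).

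Removal of the trend changed most calls. In each library a smooth curve of GC content and transcript length was fitted over all genes and subtracted, and the test was repeated. Then 11 members were higher and 8 lower, against 4.07% and 5.93% of the 14598 genes tested, which are shares close to those of the members (4.89% and 3.56%). The member median was 0.022. Of the original calls, 11 higher and 4 lower members held in the same direction. These counts too changed with the library left out: without control 1, 35 were higher and 22 lower. Without knockout 1, 0 were higher in limma (26 at an unadjusted p) and 2 lower. Without knockout 2 or 3, 2 and 1 were higher and 2 and 3 lower, and without control 2 or 3, 9 and 7 were higher and 3 were lower in both cases.

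The 11 members that were higher in both analyses were ZNF224, ZNF354C, ZNF37A, ZNF160, ZNF549, ZNF791, ZNF638, ZNF121, ZNF146, ZNF75A and ZNF664, and the first 6 encode a KRAB box. Exons of 8 of these 11 (all but ZNF160, ZNF791 and ZNF121) overlap another gene. Control means of ZNF224, ZNF354C and ZNF549 were 236 to 274, under the limit for members. These 3 reached that limit through their knockout level. The 4 that were lower in both were ZNF185, ZNF777, ZNF865 and ZNF496. After trend removal ZNF224 kept a log2 fold change of 0.61 (limma, SE 0.13, adjusted p = 0.0165), and ZNF549 and ZNF75A, whose transcripts are near the middle of the GC range, hardly moved. ZNF75A had 925, 802 and 859.7 counts in the knockout libraries, against 694, 570.3 and 555 in the control libraries. The groups were apart, with a log2 fold change of 0.51 in either analysis (limma adjusted p = 0.00384 as deposited and 0.0109 with the trend removed). Its exons overlap other genes on both strands, which makes its count uncertain.

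ZNF664 and ZNF146 were the most abundant of the 11. ZNF664 (chromosome 12, 123971845 to 124015439, plus strand) had 4929, 4826 and 4228 counts in the knockout libraries, against 3751, 3429 and 2911 in the control libraries. The groups did not overlap, and the log2 fold change was 0.47 as deposited and 0.45 with the trend removed (SE 0.087, limma adjusted p = 0.00839). ZNF146, a protein made up almost wholly of its 10 fingers, had 3059, 2717 and 2731 counts in the knockout libraries and 1978, 1883 and 1673 in the control libraries. The groups were far apart, and the change was 0.62 as deposited and 0.31 with the trend removed (SE 0.059, limma adjusted p = 0.00901). Each of the 11 lost its trend-removed call without at least 2 single libraries, with adjusted p values up to 0.175 for ZNF354C.

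Of the 19 members called after trend removal, 2 stayed called without any 1 of the 6 libraries, and both were lower. ZNF185 then had a log2 fold change of -0.42 (limma, SE 0.065, adjusted p = 0.00323, at most 0.0347 without a library). ZNF706 is the member with the highest mean level, and in mouse embryonic stem cells its protein acts in the exit from self-renewal. It had 4826, 5055 and 4922 counts in the knockout libraries, against 5361, 5447 and 5576 in the control libraries. The groups did not overlap but lay close, and the log2 fold change of -0.15 was not called as deposited (SE 0.077, limma adjusted p = 0.15). Trend removal gave -0.50 (SE 0.071, limma adjusted p = 0.00213, at most 0.025 without a library). Of the 57 members in its band of GC content, 44 were higher as deposited.

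ZNF207 was called in opposite directions. It encodes BuGZ, a kinetochore protein that binds BUB3. Its levels were 4615, 4451 and 4304 counts in the knockout libraries, against 3933, 3923 and 3611 in the control libraries. The knockout libraries were all above the control libraries, with a log2 fold change of 0.22 (limma, SE 0.081, adjusted p = 0.0429). Trend removal gave -0.27 (SE 0.056, limma adjusted p = 0.0135). The first call was lost without control 2, control 3, knockout 1 or knockout 2 (limma adjusted p up to 0.152), and the second without control 2, knockout 1 or knockout 2 (up to 0.0943). ZNF264 and ZNF655 were also lower with the trend removed, with log2 fold changes of -0.43 and -0.24, and not called as deposited.

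Of the 5 members with the highest mean level, ZNF622 and ZNF76 were called in neither analysis. Over the members the level per kilobase of transcript had a median of 160.3 normalized counts per kb, and ZNF622, a factor in maturation of the large ribosomal subunit, stood highest at 2446. ZNF622 had 3957, 3723 and 3931 counts in the knockout libraries, against 4043, 4418 and 4865 in the control libraries. The knockout libraries were all lower, but the difference was not called (log2 fold change -0.20, limma adjusted p = 0.0895). ZNF76, an activator of small nuclear RNA genes, had 4381, 4593 and 4942 counts in the knockout libraries and 5284, 5122 and 5473 in the control libraries. These groups did not overlap either, and the difference was not called (log2 fold change -0.19, limma adjusted p = 0.0753).

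By position, 85 members lie on chromosome 19, of which 32 were higher (37.6%) and 11 lower (12.9%). The 62 KRAB members there counted 28 higher and 0 lower in limma (2 lower at an unadjusted p, 0 in edgeR and 2 in DESeq2), and the 22 coding members without the box 4 higher and 11 lower. Elsewhere, 15 of 52 KRAB members were higher and 6 lower, and 26 of 85 others were higher and 18 lower. Of all 140 members elsewhere, 30.7% were higher and 17.1% lower, against 18.9% and 14.4% of all genes tested. Members on chromosome 19 less than 1 Mb apart were joined into clusters. The cluster between 51571298 and 53580269 holds 17 members, 16 of them with a KRAB box, and includes ZNF614 and ZNF160. Of its members 12 were higher and 0 lower in limma, edgeR and DESeq2 alike, with 0 lower also at an unadjusted p. Their median GC content was 41.7%, and their median log2 fold change 0.37. The cluster between 55476332 and 58475436 holds 29 members, 18 of them with a KRAB box, among them ZNF628, ZNF865 and ZNF837. There 5 were higher and 8 lower, with a median of -0.10 and a median GC content of 50.1%. With the trend removed the medians were 0.093 and -0.052. In the first cluster 1 was then higher and 0 lower, and in the second 1 higher and 2 lower. Of all genes, 4.07% were higher and 5.93% lower with the trend removed. Outside chromosome 19, the 19 members on chromosome 16 counted 1 higher and 9 lower, at a median GC content of 58.8%.

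Members with other known roles were counted by list, against 18.9% higher and 14.4% lower among all genes, and the lists were not tested against each other. Their median GC content was 51.8% for SCAN members, 42.5% for activators, 43.9% for members that act on RNA, ribosomes or other proteins and 51.6% for partners of chromatin complexes. SCAN domains let zinc finger proteins pair with each other, and of 13 SCAN members 2 were higher and 4 lower, of which 1 call (ZNF496, lower) was kept with the trend removed. ZNF24, which is known to repress VEGF, had 4068, 3575 and 3270.1 counts in the knockout libraries, against 2508, 2348 and 2103 in the control libraries. The groups were far apart (log2 fold change 0.65, SE 0.098, limma adjusted p = 0.000166), and with the trend removed the change was 0.19 and no longer called (limma adjusted p = 0.0709). ZNF397 was higher by 0.51 and ZNF500, ZNF213, ZNF444 and ZNF496 were lower, with log2 fold changes of -0.45 to -0.27. ZNF444 and ZNF496 lost these calls without control 2, control 3, knockout 1 or knockout 2 (limma adjusted p up to 0.255 and 0.138).

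Of 9 activators, 5 were higher (ZNF148, ZNF292, ZNF143, ZNF131 and ZNF281) and 0 lower in limma (2 lower at an unadjusted p, 0 in edgeR and 1 in DESeq2). ZNF143, which binds promoters of small nuclear RNA and many protein-coding genes, had 1273, 1044 and 1202 counts in the knockout libraries, against 933, 803 and 752 in the control libraries. All knockout libraries were higher (log2 fold change 0.50, SE 0.11, limma adjusted p = 0.00342). ZNF148, which binds GC-rich promoter elements, was higher by 0.63 (SE 0.10, limma adjusted p = 0.000331). After trend removal 0 of the 9 were called by limma, and 1 was higher at an unadjusted p.

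Of 11 members that act on RNA, ribosomes or other proteins, 5 were higher and 1 lower. Besides ZNF638 and ZNF207, ZNF451, a SUMO ligase, was higher by 0.61 (0.15 with the trend removed, limma adjusted p = 0.204) and ZNF326, a factor that couples RNA polymerase II to splicing, by 0.38. After trend removal 1 of the 11 was higher (ZNF638) and 1 lower (ZNF207). The call of ZNF326 was lost without knockout 1 or 2 (limma adjusted p up to 0.0824), and with the trend removed its value was -0.097. ZNF598, which detects collided ribosomes, had 2902, 2971 and 3617 counts in the knockout libraries, against 3875, 3611 and 4229 in the control libraries. Knockout 3 lay just above control 2, so that the groups overlapped, and the log2 fold change was -0.31 (SE 0.097, limma adjusted p = 0.022). That call was lost without control 3, knockout 1 or knockout 2 (up to 0.12).

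Of 11 members known as partners of chromatin complexes, 1 was higher and 3 lower. ZNF644, a partner of the H3K9 methyltransferases G9a and GLP, was higher by 0.32 (SE 0.091, limma adjusted p = 0.0121). It lost the call without control 3, knockout 1 or knockout 2 (up to 0.064), and its value was -0.11 with the trend removed. The lower ones were ZNF687, which binds ZMYND8, at a log2 fold change of -0.34, ZNF703, a corepressor amplified in luminal breast cancers, at -0.38 and ZNF512B at -0.31. Without knockout 1 none of these 3 was called (limma adjusted p = 0.081, 0.0837 and 0.114). After trend removal 0 of the 11 were called by limma, and 2 were lower at an unadjusted p.

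The machinery that KRAB proteins use was measured as a list of 26 genes, with 11 higher and 4 lower. These are 42.3% and 15.4%, against 18.9% and 14.4% of all genes. GC content of their transcripts had a median of 48.2%, between 36.0% in SMARCAD1, which was higher, and 63.7% in TRIM28, which was lower. The median log2 fold change was -0.035. TRIM28, the corepressor that binds the KRAB box, had 20415, 22917 and 25930.4 counts in the knockout libraries, against 30492, 28957 and 32432 in the control libraries. All knockout libraries were lower, with a log2 fold change of -0.41 (limma SE 0.089, adjusted p = 0.00234). Trend removal gave -0.18 (SE 0.051, limma adjusted p = 0.0478), a call kept without control 1 and lost without any of the other 5 libraries (up to 0.205). SETDB1, which methylates H3K9 at KRAB targets, had 1046, 1186 and 1107 counts in the knockout libraries and 1154, 1232 and 1059.6 in the control libraries. These groups overlapped (log2 fold change -0.04, limma adjusted p = 0.766).

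ATRX, a remodeller that deposits histone H3.3 in heterochromatin, had 2311, 2557 and 2371 counts in the knockout libraries, against 1406, 1363 and 1407 in the control libraries. The groups were far apart, with a log2 fold change of 0.79 (limma, SE 0.089, adjusted p = 3.85e-05) and of 0.31 with the trend removed (SE 0.077, limma adjusted p = 0.0261). SMARCAD1, a remodeller that binds TRIM28, was higher by 0.67 (0.23 with the trend removed), and TASOR, a subunit of HUSH, by 0.66 (0.20 with the trend removed, not called). Of the H3K9 methyltransferases, SUV39H1 was lower at a log2 fold change of -0.44 and EHMT2, also called G9a, at -0.36. SUV39H2 went the other way and was higher by 0.58 (SE 0.13, limma adjusted p = 0.00371), or 0.26 with the trend removed, not called. EHMT1, at -0.17, was not called. With the trend removed 4 of the 26 were higher (ATRX, SMARCAD1, MPHOSPH8 and CBX1) and 3 lower (TRIM28, SUV39H1 and CBX5). These are 15.4% and 11.5%, against 4.07% and 5.93% of all genes. The trend-removed calls of SMARCAD1 and SUV39H1 were kept without control 1 and lost without any other library (up to 0.167 and 0.197). ATRX lost that call without control 2, knockout 2 or knockout 3 (up to 0.126). CBX5, the HP1 alpha gene, had 4689, 4586 and 4222 counts in the knockout libraries and 4783, 4467 and 4241 in the control libraries. As deposited its groups overlapped (log2 fold change 0.0009, limma adjusted p = 0.995), and trend removal gave -0.36 (SE 0.051, limma adjusted p = 0.00213). The CBX5 call thus came with the subtracted trend only. For MPHOSPH8, CBX1 and CBX5 the calls without single libraries are not given here. SUV39H2, EHMT1, MPHOSPH8, CBX1 and CBX5 are named after their values were seen.

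**Figure D5:**
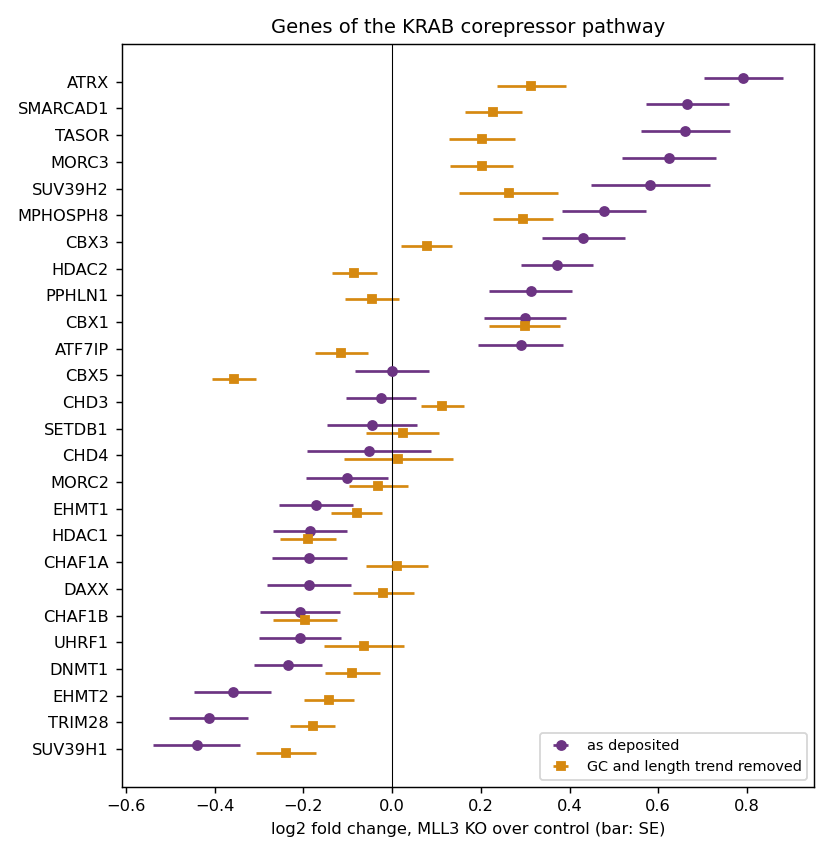
Log2 fold change, knockout over control, with its SE, for the 26 genes of the KRAB corepressor pathway, as deposited (circles) and with the GC and length trend removed (squares). As deposited the values run from -0.44 (SUV39H1) to 0.79 (ATRX), and for ATRX, SMARCAD1, TASOR and TRIM28 the trend-removed value lies nearer to 0 on the same side.

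Some counts of duplicated genes are uncertain. In 12 members over 20% of the 50-base windows of the longest transcript also occurred in transcripts of other genes, and of these 2 were higher (ZNF322 and ZNF468) and 1 lower (ZNF775). ZNF468 shared 99.2% and ZNF320 99.5% of their windows. Exons overlapped another gene on the other strand in 75 members and on the same strand in 47. In the 117 members with no such overlap, 41 were higher and 16 lower. With the trend removed 3 of these 117 were higher and 6 lower, against 8 and 2 of the 108 with an overlap on either strand.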

How the data were processed

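RNA of 3 MLL3 knockout and 3 control libraries of MDA-MB-231 cells was sequenced. The submitters' processing notes name STAR 2.4.0, DESeq2 1.30.1, featureCounts 1.5.0 and FastQC, and the genome build GRCh38.p13. Not given in the sources used here are the strand setting, the annotation release and any filter. The authors deposited normalized read counts, a signal made by dividing each gene's reads by 1 size factor per library. Per the file headers, the deposited table also holds the authors' log2 fold change with its standard error, p-values with and without adjustment, and the Wald statistic, a score. Dividing by a common step per library gave back whole reads for 100% of values (within 0.01), 41401044, 49514464 and 48111363 in knockout 1 to 3 and 41240265, 42024652 and 48244821 in control 1 to 3.

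The test was limma (version 3.58.1, R 4.3.3) with its mean-variance trend, run for the 14618 genes of a mean of at least 10 on log2(value + 1), two-sided, with Benjamini-Hochberg adjustment over all of them and a threshold of 0.05. Fold changes are on that scale, which shrinks changes at low levels. SE is limma's standard error. For trend removal, GC percent and log2 length of the longest transcript entered a fit of natural splines (5 terms each) to each library's gene-centred values, which was subtracted (14598 genes). edgeR 4.0.16 and DESeq2 1.42.0 were run on the whole reads as alternatives. Scripts were tested on simulated data.

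GC content, length, coordinates, fingers and KRAB boxes come from GENCODE 29 on GRCh38. A KRAB box was called where at least 8 of 14 conserved positions matched, so a box with fewer matches was counted as absent. The finger sequence of 1 further member is not reported here. Promoters come from RefSeq (GRCh38.p14). Named genes were KMT2C, the 10 largest increases and decreases among called members whose groups do not overlap, up to 10 per direction with the smallest adjusted p after trend removal, the 5 highest in level, the 2 ZNF genes on either side of the limit of 300, and up to 3 per direction of each role list. Other genes, such as SETDB1 and those that spell out small counts, were named after their values were seen. The members, the gene lists and the tests were chosen with earlier results of these data known. Replicate numbers were not used as pairs in the test, and whether they pair the libraries is not settled. As deposited, correlations of same-numbered libraries were 0.066, 0.006 and 0.129. For knockouts 1 and 3 this was their highest, but knockout 2 reached 0.022 with control 1. No library repeated another.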

Additional observations from a re-analysis of the deposited data

How the results depend on the processing

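Counts of calls over the members, all genes and the pathway list held within 1.5 times under another pseudocount, filter, TMM or quantile scaling, edgeR and DESeq2, but 12 KRAB members were lower under quantile scaling, against 6. Removal of the GC and length trend left 11 members higher and 8 lower (12 and 8 with the trend fitted without zinc finger genes), 594 and 866 of all genes (625 and 843), and 4 pathway genes were higher (4). The limit at a mean of 500 left 48 members called higher. Replicate numbers were not used as pairs in the main test. With a replicate block 85 members were higher and 51 lower, and 9 pathway genes were lower. Over all genes the block gave 3241 higher and 3024 lower, against 2760 and 2099 without it. Not every library correlated best with its own number. Block and trend removal together gave 10 members higher and 8 lower, 540 and 774 of all genes, and 3 and 1 pathway genes. Leaving out 1 library gave 44 to 91 members higher and 7 to 47 lower, 1587 to 3300 and 556 to 2868 of all genes, and 8 to 11 and 3 to 5 pathway genes. With the trend removed as well it gave 0 to 35 members higher and 2 to 22 lower. The cause was not tested. Under trend removal (in brackets with zinc finger genes left out of the fit) the sign was reversed in ZNF207 at -0.27 (-0.27), ZNF655 at -0.24 (-0.24), ZNF644 at -0.11 (-0.11) and ZNF326 at -0.097 (-0.096), and the block with trend removal gave -0.27, -0.11 and -0.097 for ZNF207, ZNF644 and ZNF326. Of the 48 named genes called as deposited, 32 kept the call without any 1 library, and of 23 called with the trend removed, 2 did. Every pair of libraries differed beyond counting error (chi-square per degree of freedom of at least 8.83), at 167 or more reads per member and library.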

Other observations

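The 230 ZNF genes under the limit of 300 also moved mostly upward as deposited. Of the 221 tested, 74 were higher (33.5%) and 2 lower (0.905%) in limma, with a median log2 fold change of 0.41. With the trend removed 6 were higher (2.71%) and 1 lower (0.452%). Among all genes 18.9% were higher and 14.4% lower, or 4.07% and 5.93% with the trend removed. Of the related families, 7 of 15 ZFP genes (46.7%) and 5 of 15 ZSCAN genes (33.3%) were higher in limma. So were 2 of 7 ZKSCAN genes (28.6%) and 13 of 38 ZBTB genes (34.2%), and 2 ZBTB genes were lower (5.26%). With the trend removed 3 of the 15 ZSCAN genes, 1 of the 7 ZKSCAN genes and 2 of the 38 ZBTB genes (5.26%) were still called higher. The families are small and were not tested against all genes.

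In the promoters 5 motifs were searched on both strands, which describes the letters only. The 27305 promoters set beside those of members were not limited to expressed genes. Their median GC content was 58.3% and their median number of CG pairs 14, against 63.7% and 24 in the members. Promoters matched for expression or base composition were not compared. The letters GGGCGG, a GC box, stood in 66.7% of the 189 member promoters and in 44.6% of 27305 promoters of the same length. The letters CCGGAAG, the core of an ETS site, stood in 39.2% against 10.7%. The CRE letters TGACGTCA stood in 5.29% against 1.98%, a 10-base NRF1 motif in 2.65% against 1.36% and an 11-base YY1 motif in 1.06% against 0.916%. In members that were higher, lower or not called, the GC box stood in 64.7%, 78.6% and 64.5%, and the ETS core in 39.7%, 46.4% and 36.6%.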
